A study of Mus musculus with 37 samples.

Results

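The 9 libraries described here are the untreated ones among the 37 libraries of the series, namely 6 of ureter (U) and 3 of bladder, all from the same 3 mice. They were chosen by column name, which gives the organ, the side and the number of the mouse. All were female BALB/c mice, an inbred strain, that drank tap water for 18 weeks and received no agent, while the mice of the other libraries of the series drank the bladder carcinogen BBN, a nitrosamine. Each mouse gave its right ureter, its left ureter and its bladder, so the 2 ureters of a mouse are not separate animals, and they were summed per mouse before any test of the organs. Tissue was kept in RNAlater, and libraries were made from its RNA without sorting of cells, so epithelium, muscle, fat, vessels and nerves entered each library together. The comparison asks how the 2 organs differ before any carcinogen is given.

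Ureter and bladder are lined by the same kind of epithelium, the urothelium, in which basal cells bear a sheet of umbrella cells sealed by uroplakin plaques. Beneath it lies smooth muscle, which in the bladder (the detrusor) is driven by parasympathetic nerves through acetylcholine and ATP, and in the ureter contracts in waves that start from pacemaker cells near the kidney. The mesenchyme of the ureter descends from Tbx18-positive cells beside the nephric duct, whereas the bladder forms from the cloaca and its surrounding mesenchyme, at the caudal end of the body where the 5′ Hox genes are active. Fewer cells of a type and less RNA per cell cannot be told apart in libraries of whole tissue.

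The untreated libraries held 12980008 to 18793560 estimated counts over 24421 gene symbols. The first principal component carried 79.5% of the variance and parted the organs, with ureters between -67.6 and -50.0 and bladders between 99.7 and 125. The left ureter of mouse 3 stood apart from all other libraries on the second component (6.10% of the variance), at -60.7 against -5.57 to 20.1. The right ureter of mouse 1 had the lowest RNA integrity number (RIN) of the 9 libraries in the study's supplementary table. Leaving out either library kept both counts of changed genes within 1.5 times.

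Of 15545 genes tested, 2489 were higher and 2164 lower in U than in untreated bladder, by at least 2-fold and with an FDR below 0.1 in edgeR's quasi-likelihood test. These are 16.0% and 13.9% of the genes tested, 29.9% in all, and every count of members below is to be read against them. Of the 4653 genes called, 4630 had the same direction in all 3 mice, and in 54.6% of the genes tested the 6 ureter and 3 bladder libraries did not overlap. Scaled to library totals in place of TMM, 1630 genes were higher and 3472 lower, and the median log2 fold change of all genes moved by -0.42 with that scaling, from 0.01 to -0.41. Between the right and the left ureter 0 of 14664 genes were called, 741 had an unadjusted p under 0.05, and DESeq2 called 0 as well.

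**Figure D1:**
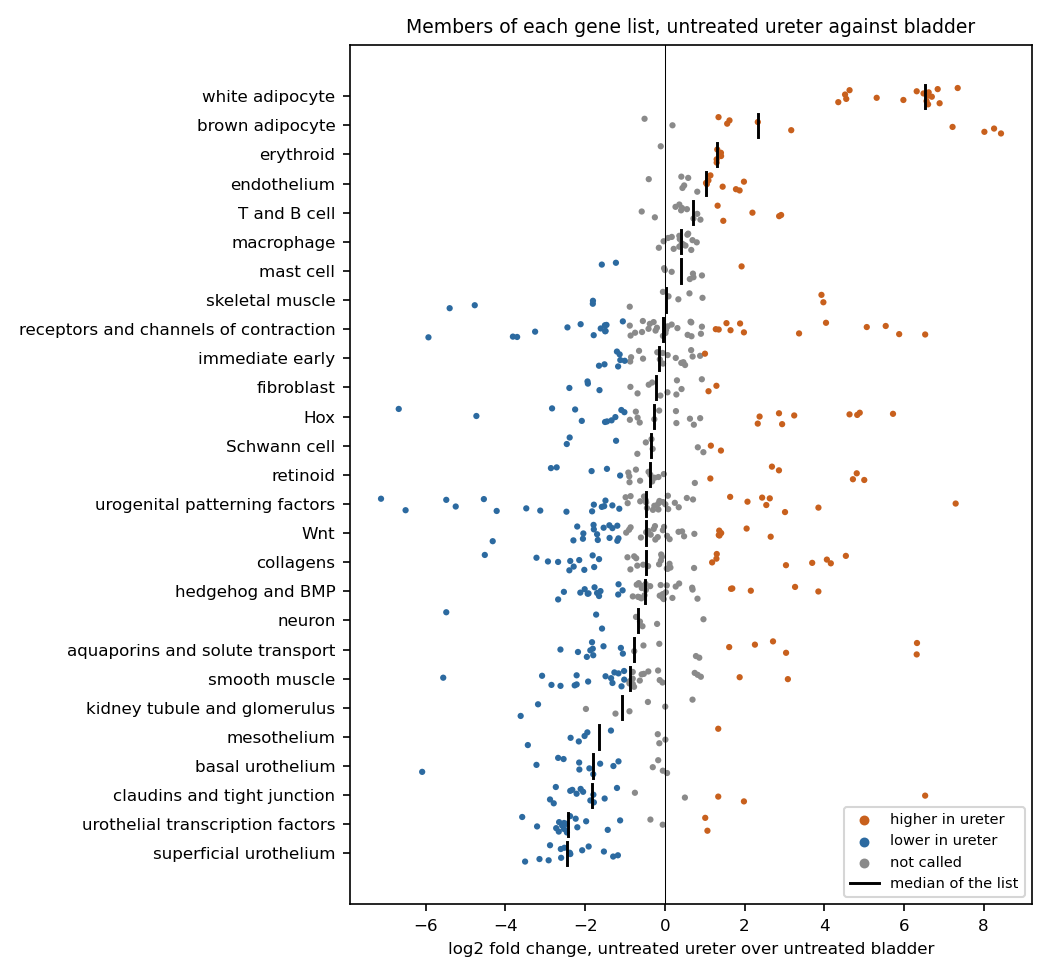
Log2 fold change of untreated ureter over untreated bladder (x axis) for each tested member of 27 gene lists (y axis, ordered by median). Each point is a gene and each black bar the median of its list. White adipocyte genes lie at 4.35 or above, and all superficial urothelium genes lie below 0.

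Markers of fat were higher in U. All 16 white adipocyte markers were higher in U, with a median log2 fold change of 6.53 (8.15 without bladder 2) beside 0.01 over all genes tested. Their summed level was 9.07% to 12.5% of CPM in the 6 ureters and 0.0819% to 0.318% in the 3 bladders, the highest of these in mouse 2. Adipoq, the adipocyte hormone adiponectin, was at 2948, 3358 and 4957 CPM (lowest, median and highest ureter), and at 8.02, 102 and 3.68 CPM in the bladders of mice 1, 2 and 3. Plin1, which coats the lipid droplet, was at 511, 592 and 693 CPM in ureters and at 1.76, 12.8 and 0.757 CPM in bladders. In neither gene did the organs overlap, and bladder 2 was the highest of the 3 bladders in both. Scd1, a desaturase, or Cfd, the protease adipsin, was the most abundant gene of every ureter library, with means of 31925 ± 11723 and 35784 ± 6476 CPM (SD, n = 3 mice).

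Genes of brown fat were also higher in U, 9 of the 11 tested. Ucp1, the uncoupling protein of brown adipocytes, was at 3.59, 17.1 and 49.7 CPM (lowest, median and highest ureter), against 1 count in each bladder. The ratio was 376-fold, with a 95% counting interval of 129 to 1826. Cidea, a lipid droplet protein of brown fat, averaged 119 ± 18.4 CPM in U and 0.465 ± 0.210 CPM in bladder, and Cox8b, a subunit of the respiratory chain, 200 ± 27.9 and 0.675 ± 0.489 CPM (SD, n = 3 mice each). The 6 ureters lay above the 3 bladders in each of these genes, and Ucp1 spread widely within the ureters. The part of fat in the other differences was not tested. Bladder 2, the bladder with the highest white adipocyte level, was also the highest of the 3 in other genes higher in U that are described further on, among them Adra1a, Agtr1a, Oxtr, Osr2, Pcp4, Prrx1, Foxc2, Rspo3, Bmper, Fzd4, Hoxc8 and Tbx18, but not in Adra1d, Ptger3, Gdf5, Hoxc10 or Hoxc9.

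**Figure D2:**
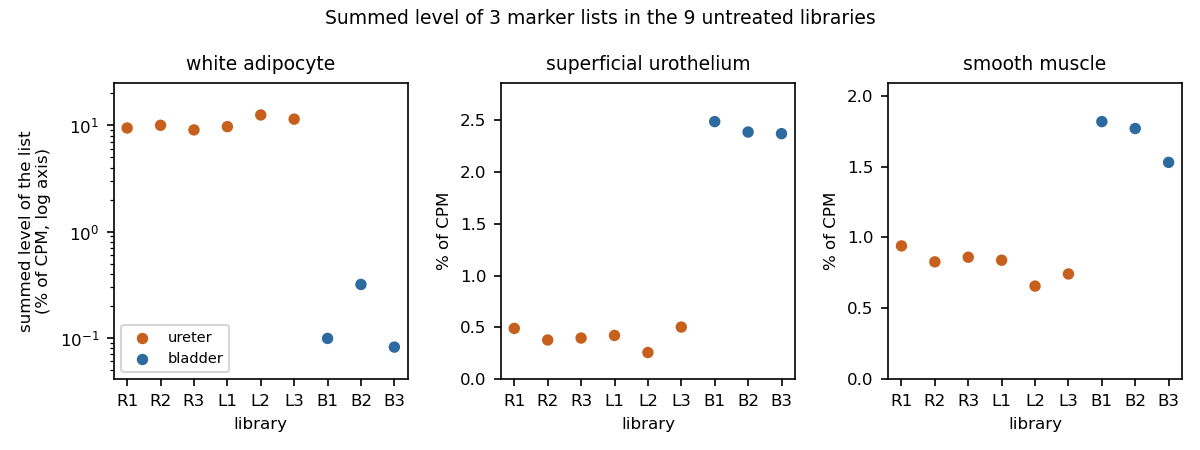
Summed level of the white adipocyte, superficial urothelium and smooth muscle lists (y axis, % of CPM, on a log axis in the first panel) in the right ureters R1 to R3, left ureters L1 to L3 and bladders B1 to B3 (x axis), the number being the mouse. The ureters sit at 9.07% to 12.5%, 0.257% to 0.503% and 0.656% to 0.940%, and the bladders at 0.0819% to 0.318%, 2.37% to 2.49% and 1.53% to 1.82%.

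Urothelial genes were lower in U. All 14 superficial markers were called lower, with a median log2 fold change of -2.45, and their summed level was 0.257% to 0.503% of CPM in ureters and 2.37% to 2.49% in bladders. Upk1a (chr7:30603092-30612847), a tetraspanin of the uroplakin plaque, was at 207, 314 and 383 CPM (lowest, median and highest ureter) and at 3777, 3607 and 3681 CPM in bladders 1 to 3. Its log2 fold change was -3.50 (SE 0.17, adjusted p = 6.95e-07). Upk1b, Upk2 and Upk3a, the other plaque proteins named, gave -2.91, -3.14 and -2.60. The members did not move by one amount, since Krt20, the keratin of umbrella cells, gave -1.18 (SE 0.16) and Krt7 -2.07 (SE 0.15). No ureter reached the level of any bladder in these 6 genes.

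Basal markers were lower in 11 of 15, with a median of -1.80. Krt5, the basal keratin, averaged 129 ± 13.9 CPM in U and 463 ± 60.4 CPM in bladder (SD, n = 3 mice each), and Trp63, the transcription factor p63, 68.6 ± 14.5 and 313 ± 20.5 CPM. Krt15 (chr11:100131758-100135928), a keratin of basal and progenitor cells, stood apart from them. It was at 10.4, 16.6 and 24.3 CPM in ureters (lowest, median, highest) and at 982, 1215 and 1230 CPM in bladders 1 to 3. Its log2 fold change of -6.09 (SE 0.21) lies beside -1.80 (SE 0.13) for Krt5.

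Transcription factors of the urothelium were lower in 16 and higher in 2 of 20, with a median of -2.42. Gata3 and Foxa1, which hold urothelial identity, gave -2.66 (SE 0.15) and -2.46 (SE 0.23), and Grhl3 and Ehf, which act in barrier formation, -2.72 and -2.58. Tfap2c, an AP-2 factor, fell from a mean of 17.5 ± 1.59 CPM in bladder to 1.43 ± 0.396 CPM in U (SD, n = 3 mice each). Pparg was higher in U, at 325, 355 and 446 CPM (lowest, median, highest ureter) against 161, 187 and 192 CPM, a log2 fold change of 1.07 (SE 0.11). Pparg serves in umbrella cells and is also the master regulator of adipocytes, and its call did not hold everywhere. It fell short of the 2-fold limit with library totals (0.65), in right ureters alone (0.95), without bladder 1 (0.99) and without the left ureter of mouse 3 (0.98). Tfap2a, the other factor called higher, was below 1 CPM in both means, at 0.542 and 0.267 CPM, and its call was lost with library totals (0.60) and without bladder 1 (0.68), among other alternatives.

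Of the signals between urothelium and mesenchyme, 13 of 44 hedgehog and BMP genes were lower in U and 5 higher, and 16 of 41 Wnt genes were lower and 6 higher. The list medians were -0.49 and -0.47. With library totals they were -0.91 and -0.88, and with no filter on low counts -0.49 and -0.23. Shh, the hedgehog ligand made by urothelium, was at 4.74, 8.72 and 10.8 CPM (lowest, median, highest ureter) and at 47.4, 55.6 and 59.6 CPM in the bladders, with no overlap. Its receptor and target Ptch1 overlapped between the organs and was not called, at -0.59, although it reached the 2-fold limit with library totals (-1.002). Bmp4, a ligand of the muscle layer, gave -1.70 (SE 0.12), Bmp7 -2.53 (SE 0.16) and Bmp3 -1.91 (SE 0.10).

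Wnt2, a ligand of mesenchyme, was at 0.768, 1.21 and 1.88 CPM in ureters (lowest, median, highest) and at 28.2, 28.2 and 22.8 CPM in bladders 1 to 3, a log2 fold change of -4.32 (SE 0.17). Wnt5a gave -1.68. Higher in U were Rspo3, which strengthens Wnt signalling, at 2.66 (SE 0.31), the receptor Fzd4 at 2.05 (SE 0.15), the BMP ligand Gdf5 at 3.85 (SE 0.34) and Bmper, which binds BMPs, at 3.27 (SE 0.23).

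Smooth muscle genes were lower in 16 and higher in 2 of 35, with a median of -0.88, and their summed level was 0.656% to 0.940% of CPM in ureters and 1.53% to 1.82% in bladders. The list did not move as one. Acta2, the vascular and visceral actin, was at 804, 1203 and 1578 CPM in ureters (lowest, median, highest) and at 2299, 2293 and 1927 CPM in bladders, and its change of -0.77 missed the 2-fold limit, which it passed with library totals (-1.19). Actg2, the enteric actin, went from 1159 ± 128 CPM in bladder to 183 ± 39.8 CPM in U (SD, n = 3 mice each), and Des, the intermediate filament desmin, from 1061 ± 123 to 143 ± 17.6 CPM. Tagln and Cnn1, which bind actin, gave -2.21 (SE 0.19) and -2.26 (SE 0.17), and Csrp1, a LIM protein of smooth muscle, -3.08 (SE 0.16). Myh11, the smooth muscle myosin, gave -1.09 (SE 0.18) and its call was lost in right ureters alone (-0.81), without both ureters of mouse 3 (-0.96) and without the left ureter of mouse 3 (-0.90), where it was at 281 CPM beside 599 to 1022 CPM in the other ureters. Myocd, the coactivator that sets the smooth muscle program, gave -0.13 (SE 0.29), and the organs overlapped.

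Actc1, the cardiac actin, had the lowest log2 fold change of the list. It was at 2.66, 3.45 and 9.58 CPM in ureters (lowest, median, highest) and at 205, 232 and 203 CPM in the bladders, a log2 fold change of -5.56 (SE 0.29). Pcp4, a calmodulin-binding protein, was higher in U, at 102, 151 and 231 CPM against 17.2, 30.3 and 9.43 CPM, a change of 3.09 (SE 0.36).

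The promoters of smooth muscle genes were searched for the CArG box, the 10-base site of serum response factor, on both strands from 250 bases before to 50 after each RefSeq start on GRCm38.p6. Of the 35 genes of the list 30 matched a promoter, and 4 of them (13.3%) held a box, as did 1.81% of the 27025 genes with a RefSeq promoter. These 4 were Actc1, which was lower in U, and Myl9, Ldb3 and Srf, which were not called. A box was held by 1 of 13 list genes lower in U (7.69%), 0 of 1 higher and 3 of 16 not called (18.8%). Actc1, at a log2 fold change of -5.56, is shown beside Myl9, a myosin light chain at -0.88 (SE 0.15), since both promoters hold the box. Myl9 missed the 2-fold limit with TMM but passed it with library totals (-1.30) and without the ureters of mouse 3 (-1.02). The 4 genes are all members of the list with a box. Actc1 and Myl9 were named after their values were seen, and Myl9 was added to the display then. The capitals mark the box, and the 250 bases before the start are shown.
Actc1, minus strand, chr2:114052876-114053125: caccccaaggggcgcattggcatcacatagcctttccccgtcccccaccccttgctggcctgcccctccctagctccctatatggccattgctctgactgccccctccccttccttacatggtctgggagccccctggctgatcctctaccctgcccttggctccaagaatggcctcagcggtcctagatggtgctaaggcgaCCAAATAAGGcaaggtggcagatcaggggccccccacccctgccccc
Myl9, plus strand, chr2:156775214-156775463: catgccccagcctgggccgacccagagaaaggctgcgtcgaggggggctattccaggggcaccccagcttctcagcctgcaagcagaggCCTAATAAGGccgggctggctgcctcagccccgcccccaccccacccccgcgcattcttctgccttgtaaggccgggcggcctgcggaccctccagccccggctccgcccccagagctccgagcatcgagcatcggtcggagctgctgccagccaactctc
The first base of the box lies at -47 from the start in Actc1 and at -161 in Myl9. A match of letters is a description of the window and not a shown site.

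Receptors and channels of contraction went both ways, with 12 higher and 13 lower among 47 tested and a median of -0.05. Chrm2, Chrm3 and P2rx1, through which nerves contract the detrusor, were lower in U. Chrm2 (chr6:36388084-36528414), the most common muscarinic receptor of bladder muscle, was at 0, 0.187 and 0.439 CPM in ureters (lowest, median, highest) and at 19.0, 7.35 and 9.94 CPM in bladders 1 to 3. Chrm3, the muscarinic receptor that starts contraction, was at 0.156, 0.500 and 0.571 CPM against 7.67, 4.66 and 4.69 CPM. P2rx1, the ATP-gated channel of detrusor, was at 11.8, 16.0 and 21.6 CPM against 224, 277 and 198 CPM. All 3 were without overlap, and their log2 fold changes were -5.93 (SE 0.53; -6.77 without the ureters of mouse 1), -3.70 (SE 0.32) and -3.81 (SE 0.16). Cacna1h, a T-type calcium channel, gave -3.25, the potassium channel Kcnma1 -1.50, and the chloride channel Ano1, which urothelium and muscle both hold, -1.46.

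Among the members higher in U were Adra1a, Adra1d, Agtr1a, Oxtr and Ptger3, which were chosen after their values were seen, and Adrb3. Adra1a (chr14:66635251-66771168) and Adra1d, the alpha1 receptors through which noradrenaline contracts the ureter, were at medians of 14.9 and 1.91 CPM in ureters. In bladders 1 to 3 Adra1a was at 0.293, 0.393 and 0.101 CPM, and Adra1d at 0, 0.168 and 0.404 CPM. The log2 fold changes were 5.88 (SE 0.45) and 3.37 (SE 0.61; 4.53 without bladder 3), without overlap. Agtr1a, the angiotensin receptor, lay closely together, at 17.0, 22.1 and 22.7 CPM in ureters (lowest, median, highest) and at 0.937, 1.96 and 1.06 CPM in the bladders. Oxtr, the oxytocin receptor, varied more, at 5.78, 25.3 and 45.8 CPM against 0.702, 1.46 and 0.202 CPM. Ptger3 gave 5.54 (SE 0.38) and Adrb3 (chr8:27225776-27250616), the beta3 receptor that relaxes detrusor and drives lipolysis in fat, 6.53 (SE 0.50). Adrb3 was highest in bladder 2 among the bladders, at 13.7 CPM beside 3.86 and 3.73 CPM, as was the white adipocyte list, and its log2 fold change was 7.44 without that bladder. Its part in fat was not tested. Abcc9 and Kcnj8, which form the ATP-sensitive potassium channel of muscle and pericytes, gave 1.28 (SE 0.09) and 1.35 (SE 0.14). With library totals both fell short of the 2-fold limit, at 0.86 and 0.93, as did Abcc9 in left ureters alone, at 0.97.

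**Figure D3:**
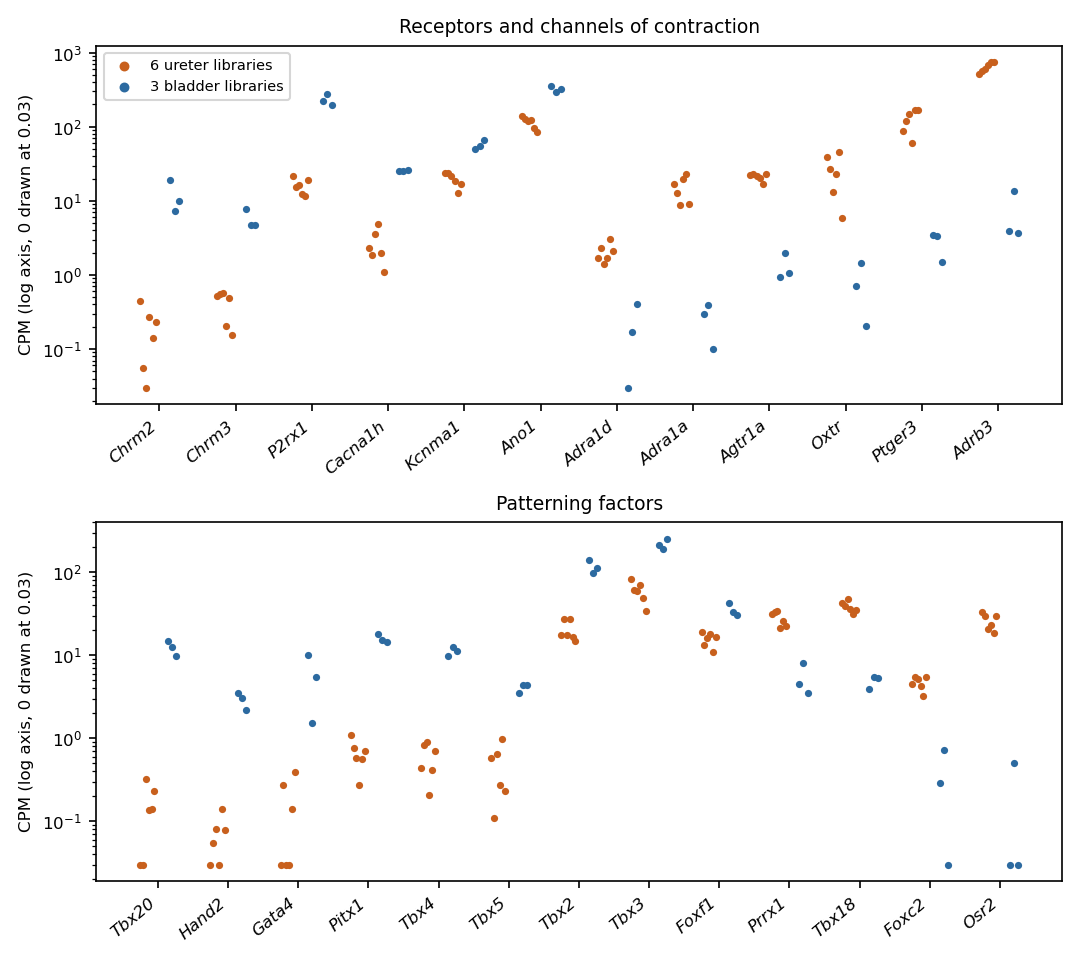
CPM (y axis, log scale, 0 drawn at 0.03) of receptors and channels of contraction (upper panel) and patterning factors (lower panel) in each of the 6 untreated ureter and 3 untreated bladder libraries. The organs do not overlap in any gene drawn, and Chrm2, Tbx20, Hand2 and Gata4 are below 0.5 CPM in every ureter.

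Patterning factors of the urogenital tract and the caudal body differed in both directions. Of 45 tested, 8 were higher and 16 lower in U, with a median of -0.47 (-0.88 with library totals and -0.17 with no filter on low counts). Tbx20, a T-box repressor, averaged 0.140 ± 0.122 CPM in U and 12.6 ± 2.58 CPM in bladder (SD, n = 3 mice each), a log2 fold change of -6.50 (SE 0.39; -7.43 without the ureters of mouse 3). Hand2, a factor of caudal and cardiac mesenchyme, was at 0, 0.0667 and 0.140 CPM in ureters (lowest, median, highest) and at 3.51, 3.03 and 2.22 CPM in bladders 1 to 3, without overlap. The zinc finger factor Gata4 averaged 0.134 ± 0.117 CPM in U and 5.66 ± 4.25 CPM in bladder, widely spread among the bladders. Pitx1 and Tbx4, factors of the hindlimb and the caudal body, gave -4.54 (SE 0.19) and -4.22 (SE 0.28). Foxf2, Tbx5, Tbx2, Tbx3 and Foxf1 gave -3.48, -3.12, -2.47, -1.82 and -1.14. Foxf1 fell just short of the 2-fold limit without bladder 1 (-0.986) and without the ureters of mouse 2 (-0.999).

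Tbx18 (chr9:87702800-87731260), the marker of ureteral mesenchyme, was at 31.7, 38.2 and 48.2 CPM in ureters (lowest, median, highest) and at 3.92, 5.55 and 5.35 CPM in the bladders. Its log2 fold change was 3.02 (SE 0.14, adjusted p = 7.22e-07), and the organs lay far from overlap. Osr2 (chr15:35296098-35303305), a zinc finger gene of urogenital mesenchyme, was at 18.8, 26.4 and 32.9 CPM in ureters and at 0, 0.505 and 0 CPM in bladders 1 to 3. Its fitted log2 fold change of 7.30 rests on the counts of bladder 2, the others being at 0 CPM. Foxc2 and Prrx1, both factors of mesenchyme, were higher as well, at 3.85 (SE 0.59) and 2.44 (SE 0.26). Foxc2 was at 5.11 without bladder 2 and at 3.23 without bladder 3. Tshz3, needed for the muscle of the ureter during development, overlapped between the organs, at means of 5.93 ± 1.36 CPM in U and 5.73 ± 0.552 CPM in bladder (SD, n = 3 mice each).

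Hox genes, which set position along the body by their place in 4 clusters, split in part by cluster and by number. There were 39 in the table, and of the 31 tested 9 were higher and 11 lower in U. The lower ones were 3 Hoxa, 3 Hoxb and 5 Hoxd genes. Of these 8 are paralogs 10 to 13, and the others, Hoxb2 among them, have smaller numbers. All 6 Hoxc genes tested, Hoxc4 to Hoxc10, were higher, with a median of 4.73. Hoxc8 (chr15:102990607-102994111) was at 8.17, 14.1 and 22.5 CPM in ureters (lowest, median, highest) and at 0.351, 0.449 and 0.0504 CPM in bladders, and Hoxc10 at 3.14, 4.95 and 7.33 CPM against 0.176, 0.168 and 0.151 CPM. Hoxa4, Hoxa5 and Hoxb9 were higher by 2.94, 2.33 and 2.38. Without bladder 2 Hoxb9 was at 3.07, and without bladder 3 Hoxc9 was at 3.64 in place of 2.86. In mice given BBN, Hoxc6, Hoxc8 and Hoxc9 were called higher in ureter as well, 3 of 6 Hoxc genes tested beside 2.62% of all genes. Hoxc8 was lowest in UN of mouse 7, where the white adipocyte list was lowest too. The part of fat in the Hoxc difference was not tested.

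Genes of paralogs 10 to 13 in the Hoxa, Hoxb and Hoxd clusters were lower in 8 of 8, a grouping chosen after the values were seen, with a median of -2.17 whether Hoxd12 is taken at its fitted value or at its bound. In mice 2, 7 and 9, given BBN, 6 of these genes were tested and 0 were called in either direction, at a median of -2.01. Hoxa10, the most abundant of them, was at 19.1, 22.8 and 26.5 CPM (lowest, median, highest ureter) and at 63.3, 66.6 and 70.1 CPM in the bladders, and Hoxa11 gave -1.45 (SE 0.15). Hoxd10 and Hoxd11 gave -1.09 (SE 0.23) and -2.25 (SE 0.33). Of paralogs 13, Hoxa13 gave -2.08 (SE 0.33), Hoxd13 -2.83 (SE 0.37) and Hoxb13 -4.73 (SE 0.43). Hoxd12 had 0 counts in all 6 ureters and 30 in the bladders, at least 15.7-fold lower against a floor of 3 counts over the ureters. The neighbours Hoxa9 and Hoxa7 were not called, at -0.63 (SE 0.15) and 0.29 (SE 0.13), though Hoxa9 passed the 2-fold limit with library totals (-1.05).

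**Figure D4:**
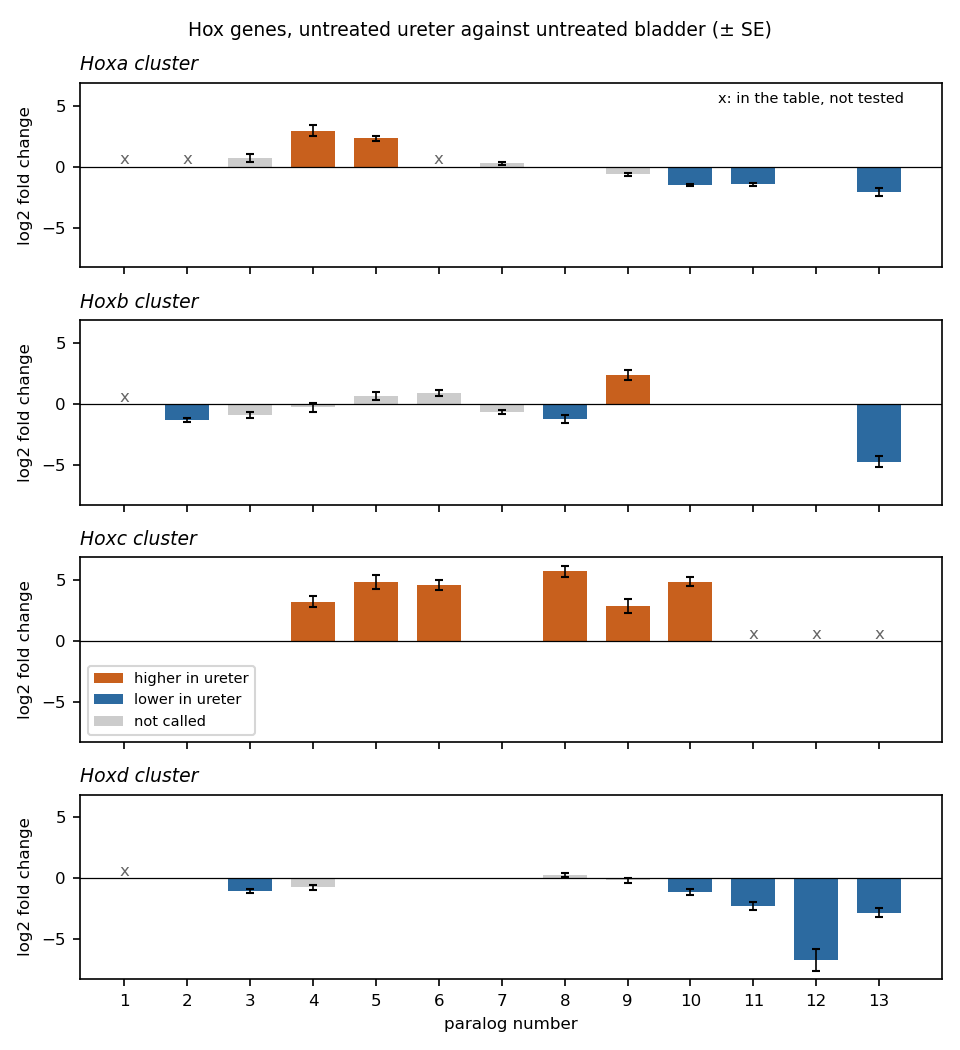
Log2 fold change of untreated ureter over untreated bladder (y axis, bars, with SE as error bars) for Hox genes by cluster (panels) and paralog number (x axis). The Hoxc genes stand at 2.86 to 5.72, while paralogs 10 to 13 of the other clusters lie at -1.09 or below. The bar of Hoxd12 is a fitted value, as its ureter counts are all 0.

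Of 21 aquaporin and solute transport genes 10 were lower and 6 higher, and of 18 claudin and tight junction genes 13 were lower and 3 higher (medians -0.77 and -1.83, the latter -1.18 with no filter on low counts). Aqp3, the water and glycerol channel of urothelium, averaged 230 ± 29.6 CPM in U and 923 ± 81.8 CPM in bladder (SD, n = 3 mice each), and Slc14a1, the urea transporter, 58.8 ± 13.5 and 275 ± 28.6 CPM. Scnn1g, a subunit of the epithelial sodium channel, gave -2.62 (SE 0.16), and Cldn8 and Cldn4, claudins of the urothelial tight junction, -2.88 and -1.78. Higher in U were Aqp7, the glycerol channel of adipocytes, at 6.32 (SE 0.49) and Car3, a carbonic anhydrase of fat and muscle, at 6.33 (SE 0.80). Both were highest in bladder 2 among the bladders, at 4.15 and 883 CPM, and gave 7.66 and 7.74 without it.

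Retinoid genes were higher in 6 and lower in 5 of 23, with a median of -0.36. Adh1, an alcohol dehydrogenase of urothelium that oxidises retinol, gave -1.45 (SE 0.12). Rbp4, the carrier of retinol made by liver and fat, averaged 1371 ± 307 CPM in U and 43.8 ± 20.5 CPM in bladder (SD, n = 3 mice each), and the receptor Rxrg gave 4.82 (SE 0.42; 5.89 without bladder 2). Both were highest in bladder 2 among the bladders. Aldh1a2, the main enzyme of retinoic acid synthesis in mesenchyme, overlapped between the organs and was not called, at -0.89 (SE 0.28), but passed the 2-fold limit with library totals (-1.30) and without bladder 3 (-1.13), among other alternatives.

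Collagens were higher in 8 and lower in 12 of 36, with a median of -0.48 (-0.89 with library totals and -0.09 with no filter on low counts). Col1a1, a chain of type I collagen, was at 25.2, 117 and 152 CPM (lowest, median, highest ureter) and at 793, 511 and 448 CPM in bladders 1 to 3, the lowest ureter being the left one of mouse 3. Col1a2 and Col12a1 gave -2.02 (SE 0.21) and -2.15 (SE 0.14). Col23a1, a membrane collagen, was higher in U, at 27.8, 50.7 and 52.9 CPM against 2.11, 2.47 and 1.72 CPM.

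Markers of other cell types went in different directions. Endothelial markers were higher in 8 and lower in 0 of 14 (median 1.04, or 0.63 with library totals). Kdr, the VEGF receptor, was at 1.79 and Tek, the angiopoietin receptor, at 1.45. Erythroid markers were higher in 5 of 6, of which 4 are globin genes. Hba-a1 and Hba-a2, near-identical copies, had identical values, so their reads cannot be told apart, and libraries of the organs overlapped in all 4. Hba-a1 was at 80.0, 337 and 102 CPM in bladders 1 to 3. Its call, at 1.30, was lost with DESeq2, with library totals (0.89) and without bladder 1 (0.96), among other alternatives, while without bladder 2 it was at 2.23. The erythroid median went from 1.31 to 2.23 without bladder 2, where the list was at 0.0906% of CPM beside 0.0231% and 0.0285% in bladders 1 and 3. T and B cell markers were higher in 5 of 15 and lower in 0, while 0 of 16 macrophage markers were called in either direction by edgeR. The T and B cell median of 0.72 was 0.29 with library totals, 0.36 without bladder 1 and 1.56 without bladder 3. The summed level of that list in bladder 3, 0.00560% of CPM, lay within the ureter range of 0.00332% to 0.00945%. Mast cell markers were higher in 1 and lower in 2 of 10, and fibroblast markers higher in 2 and lower in 4 of 16.

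Mesothelial markers were lower in 6 and higher in 1 of 10. Msln, mesothelin, was at 0.618, 2.87 and 17.8 CPM in ureters (lowest, median, highest) and at 128, 44.3 and 38.4 CPM in bladders 1 to 3, with a wide spread in both organs and no overlap. Neuron markers were lower in 3 of 8 and higher in 0. These were Snhg11, Uchl1 and Hand2, of which Hand2 is also a factor of mesenchyme and stands in the list of patterning factors as well. Schwann cell markers were lower in 3 and higher in 2 of 11. Of 12 skeletal muscle genes 4 were lower and 2 higher, with Acta1, an actin that smooth muscle can also make, at -5.40 (SE 0.52; -6.52 without the ureters of mouse 2). Kidney genes summed to no more than 0.00528% of CPM in any ureter and 0.00540% in any bladder, and 2 of the 8 tested were lower in U. Umod, the marker of the thick ascending limb, was at 0 CPM in 5 ureters and at 1.88 CPM in the left ureter of mouse 3, beside 0.351, 2.19 and 0.252 CPM in the bladders, and was too low to test. Immediate early genes, which respond to handling of tissue as well as to signals, were lower in 7 and higher in 1 of 24.

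Among the 10 largest fold changes in each direction, those lower in U include Tbx20, Krt15, Ugt2b35, Ugt2b34, Gsdmc2, Gsdmc3, Kcnf1, Dmgdh and Npy4r. Gsdmc2 and Gsdmc3, gasdermins of epithelium, were at medians of 1.79 and 0.796 CPM in ureters, while the bladders had 335, 127 and 139 CPM and 118, 41.2 and 43.2 CPM. Both belong to a family of near-identical copies, so the split between them is uncertain. Ugt2b34, a glucuronosyltransferase, was at 1.49, 2.73 and 4.19 CPM against 195, 225 and 241 CPM. Ugt2b35 had 1 count in the ureters and 297 in the bladders, a ratio of 465-fold (95% counting interval 82.8 to 18428). Kcnf1, a modulatory potassium channel subunit, gave -6.52 (SE 0.36), Dmgdh, a mitochondrial dehydrogenase of choline breakdown, -6.23 (SE 0.46) and Npy4r, a receptor of the neuropeptide Y family, -6.00 (SE 0.40). The value of Dmgdh rested on the left ureters, since it was -7.44 without that of mouse 3 and -9.59 in right ureters alone.

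Those higher in U were Slc2a5, Ucp1, Cox8b, Mup3, Mmd2, Tgm3, Cidea, Gys2, Ctcflos and Sctr. Slc2a5, the fructose transporter, was at 12.8, 20.8 and 34.7 CPM in ureters (lowest, median, highest), and its 2 counts over the bladders gave a ratio of 590-fold (95% counting interval 163 to 4879). Gys2, the glycogen synthase of liver and fat, averaged 64.8 ± 15.8 CPM in U and 0.262 ± 0.266 CPM in bladder (SD, n = 3 mice each), with bladder 2 the highest at 0.561 CPM. Its log2 fold change of 7.98 was 9.19 without that bladder. Mmd2, a membrane protein of the progestin and adipoQ receptor family, separated the mice, at 22.0 and 31.4 CPM in both ureters of mouse 3 and at 77.7 to 196 CPM in the other ureters. In bladders 1 to 3 it was at 0.0585, 1.18 and 0.101 CPM, and its log2 fold change of 8.03 was 10.4 without bladder 2. Cox8b, Tgm3 and Ctcflos were also over 1.5 times higher in fold without bladder 2, at 8.95, 8.73 and 8.77 in place of 8.26, 8.02 and 7.87. Sctr, the secretin receptor, averaged 9.39 ± 3.37 CPM in U, with 2 counts over the bladders. Mup3, a major urinary protein, belongs to a family of near-identical genes and its value is uncertain.

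The organ difference was also read in other mice. In mice 2, 7 and 9, which drank BBN and bore a cancer in the opposite ureter, the noncancerous ureter (UN) was set against the bladder of the same mice. Bladders of mice 1, 3 and 4 were left out for their low RIN in the study's supplementary table, and that of mouse 6 because its label marks it as cancer. Of 15209 genes tested 2.88% were called, 399 of them higher (2.62%) and 39 lower (0.256%) in UN. With the mouse as a replicate block these were 921 and 657. In the 6 mice with a UN and a bladder not marked as cancer, those of low RIN included, 1101 were higher and 1584 lower. The balance of the directions turned, so the overlaps given next hold for mice 2, 7 and 9 alone, in the fit without the block. The counts rested on single mice, since 0 genes were called without mouse 2 or without mouse 9 (1686 and 996 had an unadjusted p under 0.05), and 1497 higher and 1180 lower without mouse 7. Of the 2270 genes higher in untreated ureter that were tested in both, 371 were higher in UN (16.3% of these, and 93.2% of the 398 called there). Of the 1915 lower, 18 were lower in UN (0.940%, and 60.0% of the 30 called there). In the opposite direction 1 of the 2270 and 4 of the 1915 were called. By sign alone 92.4% and 83.9% went the same way, beside 49.8% and 50.2% of all genes with that sign.

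The calls of lists and genes given here are those of the fit without the block. White adipocyte genes were called higher in UN in 16 of 16 (0 of 16 without mouse 2 or mouse 9, at medians of 6.65 and 6.93), and superficial urothelium genes in 0 of 14 in either direction, with a median of -1.12. Without mouse 7 that median was -2.27, with 1 gene called lower, and it was -0.62 without mouse 2 and -1.07 without mouse 9, with 0 called in both. Tbx20 was at 0.387, 0.171 and 0.263 CPM in UN of mice 2, 7 and 9 and at 6.92, 9.50 and 5.01 CPM in their bladders, a log2 fold change of -4.74 (adjusted p = 0.0591). Hand2 and P2rx1 were called lower at -5.65 and -2.75. Tbx18, at 9.79, 23.5 and 23.2 CPM against 2.90, 2.03 and 3.40 CPM, gave 2.77 (adjusted p = 0.0628). Chrm2 and Chrm3, at -3.88 (adjusted p = 0.123) and -2.29 (adjusted p = 0.146), were not called.

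UN of the 3 mice differed in makeup. The white adipocyte list was at 11.3%, 1.60% and 11.4% of CPM in UN of mice 2, 7 and 9, the superficial urothelium list at 0.00702%, 0.698% and 0.286%, and the basal urothelium list at 0.0110%, 0.682% and 0.0600%. Macrophage and erythroid markers were highest in mouse 2, at 1.37% and 1.82%. Hoxc8 was at 2.28 CPM in UN of mouse 7 and at 20.9 and 21.3 CPM in UN of mice 2 and 9, and Adrb3 at 52.0 CPM beside 318 and 547 CPM. Adra1a was at 3.25 CPM beside 9.15 and 6.22 CPM. The part of these differences in makeup in the values was not tested. In the bladders of mice 2, 7 and 9 Hoxc8 was at 0.0744, 0.0633 and 0.597 CPM and Adra1a at 0.223, 0.0633 and 0.298 CPM, below UN of mouse 7 in each case.

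**Figure D5:**
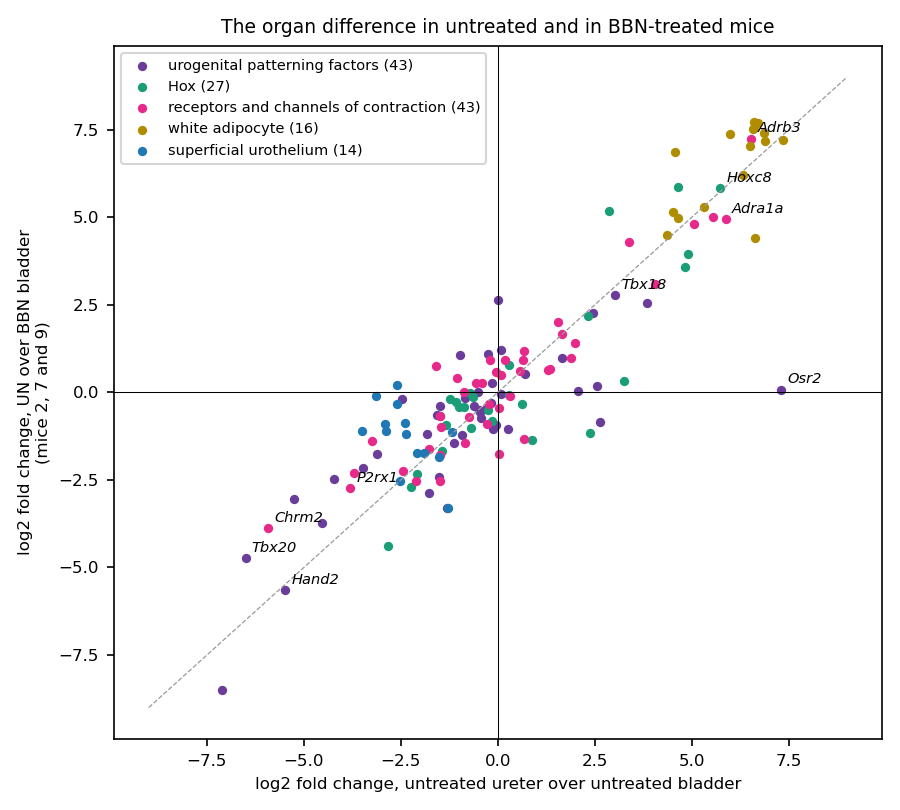
Log2 fold change of untreated ureter over bladder (x axis) against that of UN over bladder in BBN-treated mice 2, 7 and 9 (y axis) for genes of 5 lists tested in both, 1 point a gene, with the line of equal values dashed. Hand2 and Tbx20 lie low and Tbx18, Adra1a and Adrb3 high on both axes, while Osr2 lies at 7.30 and 0.08.

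The organ difference itself differed between BBN and untreated mice in 360 of 15965 genes at FDR under 0.1 on the interaction term (2.25%), with 1162 such genes without mouse 2 and 1520 without mouse 7. With the 6 mice 195 genes passed. Osr2 was at 1.29, 15.8 and 6.05 CPM in UN and at 8.71, 2.85 and 10.6 CPM in BBN bladders, and its interaction term was -7.18 on the log2 scale (adjusted p = 0.0425). Osr2 was chosen after its values were seen, and its untreated difference enters the term with the opposite sign, so nothing is read from it. For Tbx18, Hand2 and Adra1a the interaction terms were -0.24, -0.28 and -0.92, with adjusted p of 0.905, 0.959 and 0.774.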

How the data were processed

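The authors deposited 1 table of estimated counts for each gene symbol in 37 libraries, which are not scaled to library size. RNA was extracted with miRNeasy, made into libraries with SMARTerHT and Nextera XT, and read in pairs on a DNBSEQ sequencer, according to the paper for mRNA expression. Submitters' processing notes name TopHat2 2.1.1 and Cuffdiff 2.2.1, and the counting program is not given in the sources used here. Of the values above 0 in the 9 untreated libraries 21.1% had a decimal part of any size, with no tolerance, and all were rounded. The 2 ureters of a mouse were summed, which gave 3 ureter sums against 3 bladders of the same mice, and 15545 of 24421 genes passed filterByExpr. They were tested with edgeR 4.0.16 (quasi-likelihood, TMM, common biological coefficient of variation 0.150), and genes at Benjamini-Hochberg FDR under 0.1 and at least 2-fold were called, the thresholds of the study. CPM use TMM factors over the 9 libraries, SD is over 3 mice, and p-values measure the spread between 3 mice. SE is the absolute log2 fold change over the square root of the F of the test. It is approximate, most so where an organ is near 0 counts. An exact permutation test of 3 against 3 that ignores the pairing by mouse cannot go below 0.1, and exchange within mice has a higher floor. Library totals of 12980008 to 18793560 set the precision of low genes, and intervals and floors cover counting error only.

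The mouse pairs the libraries, since they come from the same animals. In untreated mice, deviations of ureter and bladder of the same mouse correlated at 0.0264, -0.0652 and 0.0170. Those of right and left ureter correlated at 0.210, 0.122 and 0.0646, so the test without the block is the main one. The correlation was not measured in mice 2, 7 and 9. There the block gave 921 genes higher and 657 lower in place of 399 and 39. Within groups no pair of libraries agreed within sampling noise. Right against left ureter, and UN against bladder in mice 2, 7 and 9, were tested in the same way, and the interaction of organ and BBN by FDR alone. limma 3.58.1, DESeq2 1.42.0, R 4.3.3 and Python 3.11.15 served the alternatives and tables. The test was also run on simulated counts in which few genes changed, in random directions. That setting does not cover a difference as broad as the one between these organs, so nothing is concluded from it.

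The members and lists were chosen with earlier results of these data known. Named genes are the 10 with the largest fold change in each direction (same direction in 3 mice, mean of at least 5 CPM), a fixed list of genes, all Hox genes and up to 4 called members with the highest CPM of each list. Some genes that the rule names are not reported here. Chosen after their values were seen were Adra1a, Adra1d, Oxtr, Ptger3, Agtr1a, Osr2, Foxc2, Prrx1, Gata4, Pitx1, Tbx4, Tbx5, Foxf2, Wnt2, Rspo3, Gdf5, Bmper, Actc1, Pcp4, Csrp1, Cnn1, Myl9, Aqp7, Scnn1g, Cacna1h, Kcnma1, Tfap2c, Tfap2a, Col23a1, Rxrg, Cyp2e1, Cyp1a1, Cyp4b1, Gsdmc4, Gstm1, Ugt1a6a, Plin1, Abcc9 and Kcnj8, and the families of enzymes, gasdermins, keratins and T-box genes. Gene positions are those of GENCODE vM21 on GRCm38, and promoters those of RefSeq on GRCm38.p6. Protein genes of the mitochondrial genome are not analysed here. Alternatives were a replicate block, other scaling and filters, DESeq2, limma, 1 side alone, and leaving out single libraries.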

Additional observations from a re-analysis of the deposited data

Results flagged for a closer look

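Single ureter libraries stood apart from the other 5 in 17 of 184 groups of values examined, 16 of log2(CPM + 1) and 1 of a principal component. The limit used is a 95% critical value, which by its construction flags about 1 in 20 groups by chance. The groups share the same 6 libraries and are not independent, so the count is not to be read against that rate. The left ureter of mouse 3 was the library in 10 of these, with -60.7 on the second principal component, high values in Cfd (15.7) and Umod (1.52), and low values in Col1a1 (4.71), Col1a2 (6.39), Ptch1 (2.62), Kremen1 (4.40), Snhg11 (4.70), Erbb3 (2.98) and Col23a1 (4.85). The left ureter of mouse 2 was low in Upk2 (6.07) and Cldn7 (4.54), both genes of urothelium, and high in Cyp4b1 (7.61). The right ureter of mouse 2 was low in Cidea (5.36) and Pank1 (5.19), and that of mouse 1 was low in Hoxa7 (3.34) and high in Actc1 (3.40).

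The organ difference differed between BBN and untreated mice in 15 of 197 named genes, by the interaction term of the edgeR fit, beside 2.25% of all genes tested. Many of the named genes were chosen for a large difference in untreated mice, which enters the term with the opposite sign, so nothing is read from that count or from the terms running against the untreated direction. Values are the ureter minus bladder difference in BBN mice less that in untreated mice, on the log2 scale. Genes lower in untreated ureter with a positive term were Ugt2b35 (8.53, from 1 count in the untreated ureters), Snhg11 (4.68), Gfra3 (3.39), Col14a1 (3.13), Cyp1a1 (2.94), Adh1 (2.81), Gstm1 (2.78), Ugt1a6a (2.78), Col1a2 (2.75), Pi16 (2.62), Bmp3 (2.07) and Itpr1 (1.46). Genes higher in untreated ureter with a negative term were Osr2 (-7.18), Pcp4 (-4.57) and Col23a1 (-2.74).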

How the results depend on the processing

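Of 3519 values of 197 named genes under the alternatives, 3415 kept direction and call, 80 kept direction but lost the call, 16 gained it and 8 turned direction, and 159 genes kept their call throughout. Those that turned belong to 6 genes between -0.26 and 0.29. Without 1 replicate Myocd (-0.13) ranged from -0.36 to 0.35, Tshz3 (0.09) from -0.087 to 0.24, Hoxb4 (-0.26) from -0.57 to 0.050 and Hoxd9 (-0.14) from -0.35 to 0.0032. Myocd was at 0.094 in right ureters alone, and with library totals Tshz3 was at -0.33, Hoxa7 (0.29) at -0.13 and Hoxd8 (0.28) at -0.14. Library totals gave 1630 genes higher and 3472 lower, and all others of these alternatives stayed within 1.5 times of 2489 and 2164. Leaving out 1 replicate gave 2256 to 2698 higher and 2183 to 2254 lower. With the mouse as a replicate block 2496 were higher and 2169 lower. Between right and left ureter 0 to 1 genes were called without 1 mouse (1 without mouse 2). In BBN mice the replicate block gave 921 and 657, and the 6 mice with a UN and a bladder not marked as cancer 1101 and 1584. Leaving out 1 of mice 2, 7 and 9, an alternative chosen after seeing the data, gave 0 to 1497 higher, 0 to 1180 lower and 500 to 1520 interactions, and the 6 mice gave 195. The cause was not tested. Depth limits genes under 1 CPM, such as Chrm2, Hand2 and Hoxd12 in ureter.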

Other observations

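Enzymes of foreign compounds differed by family. These families were chosen after their values were seen. Of 13 Ugt genes tested, glucuronosyltransferases, 11 were lower and 1 higher in U, with a median log2 fold change of -2.43. Ugt1a6a was at 66.0, 72.1 and 74.3 CPM in ureters (lowest, median, highest) and at 425, 365 and 462 CPM in bladders 1 to 3, although reads of Ugt1a genes share exons and their split is uncertain. Of 20 Gst genes, glutathione transferases, 8 were lower and 5 higher. Gstm1 reached 13738, 12510 and 13543 CPM in the bladders and 2196, 3072 and 3748 CPM in ureters, a log2 fold change of -2.07 (SE 0.17). Of 32 cytochrome P450 genes 8 were higher and 9 lower. Cyp1a1, which oxidises aromatic hydrocarbons, gave -4.60 (SE 0.28), and Cyp4b1 gave 4.00 (SE 0.35). Cyp2e1, which oxidises ethanol and small nitrosamines, was at 7602, 9858 and 11617 CPM in ureters and at 27.8, 264 and 12.5 CPM in bladders, highest in bladder 2 as were the white adipocyte markers, and the part of fat was not tested. Of 3 Sult genes 2 were higher and 1 lower, and of 20 Aldh genes 6 were higher and 5 lower.

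Gasdermin genes were lower in 5 of 6. Gsdmc4 was at 0.0698, 0.301 and 0.391 CPM in ureters (lowest, median, highest) and at 23.2, 7.35 and 8.53 CPM in bladders 1 to 3, and bladder 1 was the highest in Gsdmc2 and Gsdmc3 as well. Gasdermins, keratins and T-box genes were likewise chosen as families after their values were seen. Keratins were lower in 12 and higher in 1 of 20. Of 10 T-box genes tested 7 were lower and 3 higher.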
